A study of Mus musculus with 14 samples.

Results

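The 10 genes described here, Trem2, Tyrobp, Gpnmb, Spp1, Cd9, Lgals3, Itgax, Mmp12, Nceh1 and Dcstamp, mark lipid-associated macrophages, and they were followed in gonadal white adipose tissue (gWAT) and heart of mice with and without FHL2, a scaffold protein made of LIM domains. They were taken by symbol from a table of 33459 gene IDs, and each matched 1 ID. The groups were wild-type (WT) and FHL2-/- (KO) mice on the C57BL/6 background, 21 weeks old. Every animal, the WT included, had eaten high-fat diet for 8 weeks, so no group on ordinary chow was compared. mRNA libraries came from 3 WT and 3 KO gWAT samples (replicates 1, 3 and 4) and from 4 WT and 4 KO hearts (replicates 1 to 4). The labels do not say which part of Fhl2 was removed or whether each library came from a separate animal. The p-values therefore measure the spread between these samples.

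Lipid-associated macrophages gather around dying fat cells in obese adipose tissue, take up their lipid and digest it in lysosomes. TREM2, a receptor for lipids and lipoproteins on their surface, signals through the adaptor DAP12, which Tyrobp encodes. The other genes encode surface, secreted, lysosomal and lipid-handling proteins of these cells. Several of them are also used elsewhere: Spp1 by bone and epithelial cells, Cd9 and Lgals3 by many cell types, and Nceh1 in tissues that hydrolyse cholesterol esters.

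Libraries held 15105019 to 16040188 counts in gWAT and 10835092 to 13272412 in heart. Levels are given in CPM, read counts brought to 1 common library size with TMM factors. Fold changes are log2 of KO over WT, given ± their standard error (SE), with adjusted p-values from edgeR's quasi-likelihood test over all genes of the tissue. The targeted gene fell in both tissues, in gWAT from 5.43 ± 0.980 to 0.390 ± 0.115 CPM (SD, n = 3; −3.78 ± 0.31, adjusted p = 0.0101) and in heart from 1197 ± 176 to 34 ± 3.89 CPM (SD, n = 4; −5.14 ± 0.14, adjusted p = 1.99e-08). Pan-macrophage markers were present: all 15 passed the filter on low counts in both tissues. Their summed level was 1866 to 5695 CPM in gWAT and 321 to 462 CPM in heart. This does not tell lipid-associated macrophages from others. TMM factors were set within each tissue, and mitochondrial reads made up 28.24% to 34.54% of the heart libraries and 2.18% to 4.19% of the gWAT libraries.

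In gWAT, 8 of the 10 genes fell in KO samples and 0 rose. Of all 15200 genes tested, 5.49% were called and 3.48% fell. The falls ranged from 2.77-fold for Tyrobp to 13.5-fold for Spp1. The median log2 fold change of the 10 genes was −2.10, beside 0.00 over all genes tested. All 10 passed the filter on low counts, and in 9 of 10 the highest KO library was under the lowest WT library, as in 14.5% of all tested genes, and in 0 of 10 all KO libraries lay above (13.3% of all tested genes). The log2 fold change was −1 or less for 10 of 10, as for 4.48% of all tested genes. In bulk tissue, fewer cells of a type and less RNA per cell cannot be told apart.

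Both parts of the TREM2 receptor complex fell. Trem2 (ENSMUSG00000023992, GRCm38 chromosome 17, 48346401 to 48354147, plus strand) stood at 54.1, 203 and 148 CPM in WT replicates 1, 3 and 4. In KO replicates 1, 3 and 4 it stood at 18.6, 25.3 and 20.4 CPM. The lowest WT library was still above the highest KO library, and the log2 fold change was −2.66 ± 0.42 (adjusted p = 0.0253). Tyrobp (ENSMUSG00000030579, chromosome 7, 30413760 to 30417585, plus strand), whose adaptor also serves other myeloid and NK cell receptors, was at 95.5, 252 and 214 CPM in WT and at 66.4, 63.8 and 72.6 CPM in KO libraries. Its groups did not overlap either, with a smaller change of −1.47 ± 0.31 (adjusted p = 0.037). Per gene length the adaptor was the more abundant transcript of the pair in both genotypes, at 281 against 27.3 CPM per kb of exon in WT and 101 against 4.33 in KO gWAT.

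Of the adhesion molecules, Itgax fell and Cd9 did not pass the test. Itgax (ENSMUSG00000030789, chromosome 7, 128129547 to 128150657, plus strand) encodes the integrin CD11c, long used to sort recruited macrophages from obese fat and also carried by dendritic cells. It read 55.4, 223 and 148 CPM in the WT libraries and 30.2, 26.7 and 34.9 CPM in KO gWAT, groups that did not overlap (−2.22 ± 0.43, adjusted p = 0.0306). Cd9 (ENSMUSG00000030342, chromosome 6, 125460266 to 125494791, minus strand), a tetraspanin of the cell surface, was at 51.7, 179.5 and 137 CPM in WT and at 48.7, 51.5 and 56.4 CPM in KO libraries. WT replicate 1 lay within the KO range while WT replicates 3 and 4 lay far above it, and the log2 fold change of −1.24 ± 0.37 had an adjusted p of 0.0931. An exon of Cd9 overlaps the opposite-strand transcript Gm26728, and as no source used here says whether strand was used in counting, its value is uncertain.

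The 3 secreted proteins of the group fell. Spp1 (ENSMUSG00000029304, chromosome 5, 104435118 to 104441050, plus strand), the gene of the matrix protein and cytokine osteopontin, had the largest fold change of the 10. It was at 20.4, 68.8 and 71.4 CPM in WT and at 3.04, 4.75 and 4.06 CPM in KO gWAT, where 183 reads were left over the 3 libraries beside 2573 in WT. Even WT replicate 1, the lowest, was 4.30 times the highest KO library (−3.76 ± 0.47, adjusted p = 0.0185). Lgals3 (ENSMUSG00000050335, chromosome 14, 47367751 to 47386160, plus strand) encodes galectin-3, a sugar-binding lectin of activated macrophages, and was the most abundant of the 10 per gene length. It was at 592, 1868 and 1417 CPM in WT and at 346, 308 and 347 CPM in KO libraries, without overlap (−1.95 ± 0.36, adjusted p = 0.0287). Mmp12 (ENSMUSG00000049723, chromosome 9, 7344381 to 7369499, plus strand), the macrophage elastase, was at 158, 959 and 594 CPM in WT and at 94.1, 92.1 and 105 CPM in KO libraries (−2.56 ± 0.54, adjusted p = 0.037). Its WT libraries spread over 6.08-fold, and its log2 fold change was −1.96 without WT replicate 3. Exons overlap between Spp1 and Gm42793 on the same strand and between Mmp12 and Mmp1b on the opposite strand, so both values are uncertain.

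Both genes of lysosomes and lipid turnover fell. Gpnmb (ENSMUSG00000029816, chromosome 6, 49036546 to 49070929, plus strand), a membrane glycoprotein that rises in macrophages under lysosomal stress, had the highest read count of the 10 in WT, at 369, 2601 and 1769 CPM in replicates 1, 3 and 4. In KO libraries 145, 147 and 185 CPM remained (−3.31 ± 0.60, adjusted p = 0.0285). The KO libraries lay close together and below every WT library, while WT replicate 3 held 7.04 times the level of WT replicate 1. Nceh1 (ENSMUSG00000027698, chromosome 3, 27182965 to 27284608, plus strand) encodes neutral cholesterol ester hydrolase, which frees cholesterol from stored esters. Its levels were 67.6, 178 and 152 CPM in WT and 28.9, 36.0 and 35.2 CPM in KO gWAT, without overlap (−1.99 ± 0.32, adjusted p = 0.0253). Dcstamp (ENSMUSG00000022303, chromosome 15, 39745930 to 39760938, plus strand), a membrane protein needed for cell fusion in osteoclasts and giant cells, was scarce. It was at 3.11, 8.26 and 4.97 CPM in WT and at 1.58, 1.54 and 3.03 CPM in KO libraries, 259 against 95 reads. The groups did not overlap, by a margin of 3.11 against 3.03 CPM, but the change of −1.41 ± 0.41 did not pass (adjusted p = 0.0863).

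**Figure D1:**
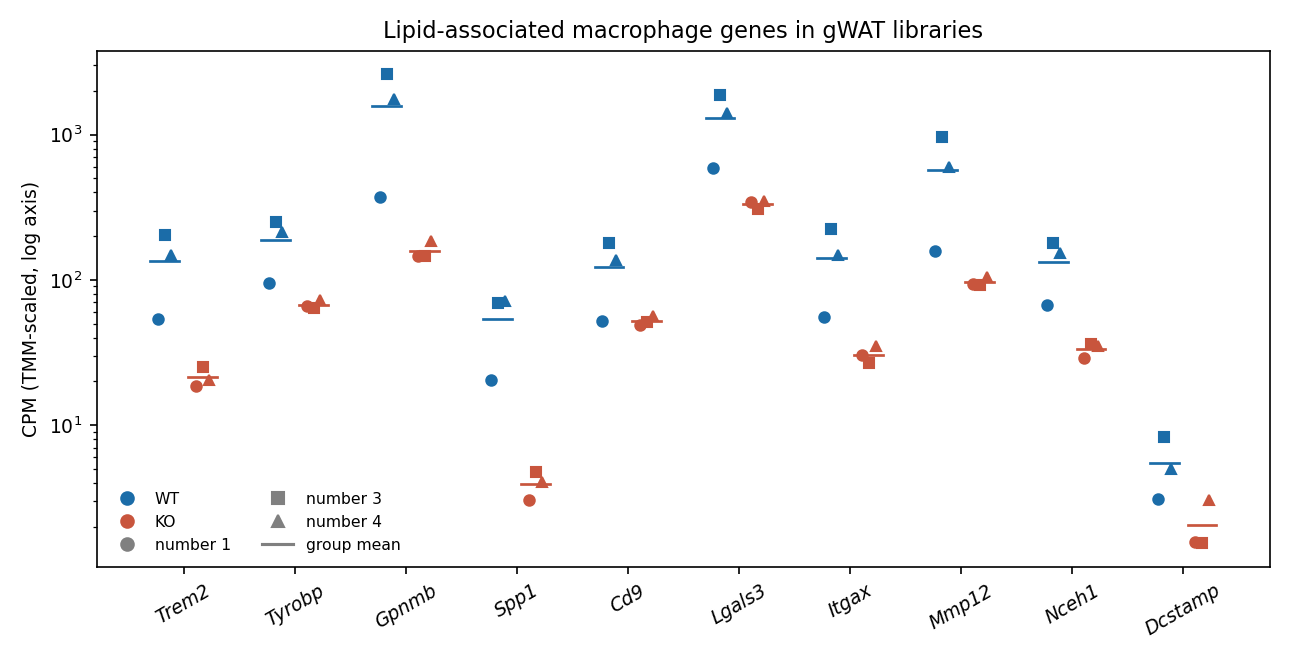
Level of each of the 10 genes in the 6 gWAT libraries, in CPM on a log axis, with 1 point per library and the group means. KO points spread over 1.12-fold (Lgals3) to 1.96-fold (Dcstamp), WT replicate 1 is the lowest WT library for all 10 genes, and only Cd9 has a WT library within the KO range.

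The calls depended on which libraries entered. Without WT replicate 1 all 10 genes passed, where 18.7% of all tested genes did, and without WT replicate 3 only Spp1, Trem2 and Nceh1 did, where 0.855% of all tested genes did. Without WT replicate 4 or any single KO replicate, 0 of 10 and no other tested gene, Fhl2 included, passed by edgeR. All 10 were then at unadjusted p under 0.05, as were 2374 to 3191 of the 15501 to 15606 genes tested. The log2 fold change was negative for every gene in all of the 15 alternative analyses run. DESeq2 called 10 of the 10 genes and 11.6% of all tested, and limma-voom 5 and 3.14%.

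The WT samples differed widely from each other in these genes. The ratio of the highest to the lowest WT library ranged from 2.64 for Tyrobp and Nceh1 to 7.04 for Gpnmb, with a median of 3.48, while the median over all tested genes was 1.33. Among KO libraries the median ratio was 1.26 for the 10 genes and 1.24 for all genes. The SD of log2 CPM was larger in WT than in KO for 10 of 10 genes, as for 59.8% of all tested genes. In WT replicate 1 all 10 genes were at their lowest, which held for 42.4% of tested genes. Replicate 3 was the highest for 9 of 10 (40.7% of tested genes) and replicate 4 for Spp1, so that the order 3, 4, 1 held for 9 of 10 (31.6% of tested genes). For 9 of 10 all KO libraries lay below WT replicate 1, as for 30.4% of tested genes. WT replicate 1 stood from 0.991 times the KO mean for Cd9 to 5.17 times for Spp1, with Trem2 at 2.53, Gpnmb at 2.33 and Nceh1 at 2.02 times. WT replicate 3 stood from 3.44 times the KO mean for Cd9 to 17.4 times for Spp1.

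Per kb of exon, the order in WT gWAT ran from Lgals3 (696 CPM per kb) over Tyrobp (281), Gpnmb (243), Mmp12 (78.8), Cd9 (60.1), Spp1 (32.5), Itgax (29.6), Trem2 (27.3) and Nceh1 (25.3) to Dcstamp (2.04). With the wide WT spread, the ranges of all neighbours in that order overlapped except those of Nceh1 and Dcstamp. In KO gWAT the order was Lgals3 (179), Tyrobp (101), Cd9 (25.5), Gpnmb (24.4), Mmp12 (13.4), Itgax (6.37), Nceh1 (6.36), Trem2 (4.33), Spp1 (2.40) and Dcstamp (0.770), and only Cd9 with Gpnmb and Itgax with Nceh1 overlapped. Gpnmb went from the third to the fourth place and Spp1 from the sixth to the ninth.

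Upstream sequence is shown for genes that fell together, since the fixed motifs of macrophage factors can be looked for there. RefSeq windows on GRCm38.p6, reaching 250 bases upstream of a gene's start, matched 8 of the 10 genes in 10 windows. The motifs searched on both strands were the PU.1 core GAGGAA, which reads TTCCTC on the other strand, the AP-1 site TGANTCA, an E-box of letters CACGTG and an E-box of letters CATGTG. The first E-box is also the core of the site of the MiT/TFE factors of lysosomal genes. None of these motifs overlapped another in the sequences printed. The 4 windows below belong to the receptor Trem2, the integrin Itgax, the secreted Spp1 and the second start of Mmp12, run 5′ to 3′ on the plus strand, and show matches in capitals.
Trem2, chr17:48346151-48346400: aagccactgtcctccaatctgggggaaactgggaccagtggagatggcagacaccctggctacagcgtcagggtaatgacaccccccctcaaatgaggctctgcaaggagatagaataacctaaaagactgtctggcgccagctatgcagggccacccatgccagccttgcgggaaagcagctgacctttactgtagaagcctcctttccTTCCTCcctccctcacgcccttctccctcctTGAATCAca
Itgax, chr7:128129300-128129546: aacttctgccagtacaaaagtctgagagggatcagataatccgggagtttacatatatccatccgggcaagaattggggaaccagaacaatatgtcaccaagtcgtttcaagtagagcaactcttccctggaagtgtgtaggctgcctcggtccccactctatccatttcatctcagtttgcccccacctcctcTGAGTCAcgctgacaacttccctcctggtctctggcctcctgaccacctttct
Mmp12, chr9:7347124-7347373: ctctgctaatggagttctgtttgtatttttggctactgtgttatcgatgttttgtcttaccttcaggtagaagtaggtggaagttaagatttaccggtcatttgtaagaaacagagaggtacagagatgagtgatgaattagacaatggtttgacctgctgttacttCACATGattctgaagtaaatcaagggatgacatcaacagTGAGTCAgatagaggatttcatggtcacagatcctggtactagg
Spp1, chr5:104434861-104435110: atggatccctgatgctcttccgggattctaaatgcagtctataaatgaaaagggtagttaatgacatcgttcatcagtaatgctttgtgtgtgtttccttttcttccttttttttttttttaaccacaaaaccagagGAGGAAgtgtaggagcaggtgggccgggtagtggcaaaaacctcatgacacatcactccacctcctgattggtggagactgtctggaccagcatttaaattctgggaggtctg
Positions are counted from the RefSeq start, which for Itgax is base 128129550, 3 bases after the GENCODE start. In Trem2, TTCCTC lies 40 to 35 and TGAATCA 9 to 3 bases before the start. TGAGTCA lies 56 to 50 bases before the start of Itgax and 44 to 38 before that of Mmp12, where CACATG lies 83 to 78 bases before it. GAGGAA lies 113 to 108 bases before the first start of Spp1.

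Over the 10 windows, the PU.1 core was found in 4 and in 23.3% of all 32851 windows of that length. The AP-1 site was found in 3 and in 6.75% of all windows. CACGTG was found in 1, that of Nceh1, and in 6.02% of all windows, and CATGTG in 2 and in 12.3%. The window of Gpnmb, which fell 9.95-fold, held no match to any of them. A match is a run of letters and no measurement of binding.

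In heart the 10 genes were measured at other levels and 0 of the 9 that could be tested passed. Among all 14159 genes tested there, 0.00706% were called, which was Fhl2 alone. DESeq2 and limma-voom also called 0 of the 9, and 0 were at unadjusted p under 0.05 in edgeR, beside 453 of all tested genes. In 0 of 9 did all KO hearts lie below all WT hearts, as in 1.17% of the genes tested. The log2 fold changes ran from −0.68 ± 0.66 for Spp1 to 0.27 ± 0.23 for Gpnmb, with a median of 0.10. The precision differed between genes, with an SE of 0.09 for Nceh1 and of 0.66 for Spp1, which had 65 reads in WT and 38 in KO hearts.

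Nceh1 was the most abundant of the 10 in heart, at 41.8 CPM per kb in WT, ahead of Cd9 (25.4), Tyrobp (16.4) and Lgals3 (5.39). It stood at 203, 202, 235 and 237 CPM in WT replicates 1 to 4 and at 217, 233, 241 and 269 CPM in KO replicates 1 to 4. The groups overlapped (0.13 ± 0.09, adjusted p = 0.9997). Cd9 was at 64.9, 67.2, 34.2 and 41.0 CPM in WT and at 65.5, 63.5, 52.0 and 41.6 CPM in KO hearts (0.10 ± 0.22), and Lgals3 at 14, 11.6, 9.38 and 5.09 CPM in WT and at 13.9, 15.3, 6.03 and 7.99 CPM in KO hearts (0.10 ± 0.33). In these 3 genes the libraries parted by replicate number and not by genotype, while in the other genes of the 10 the number sets overlapped. The number sets were chosen after seeing the data, and how many of all tested heart genes part in this way was not counted. The split is therefore not read as particular to these 3 genes. Cd9 was at 63.5 to 67.2 CPM in numbers 1 and 2 and at 34.2 to 52.0 in numbers 3 and 4, and Lgals3 at 11.6 to 15.3 and 5.09 to 9.38 CPM. Nceh1 went the other way, with 202 to 233 and 235 to 269 CPM.

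The summed level of 10 mesothelial markers, genes of the lining that covers the heart, moved with the numbers too, at 247 to 392 CPM in numbers 1 and 2 and 52.5 to 125 CPM in numbers 3 and 4, and its part in the values of Cd9, Lgals3 and Nceh1 was not tested. With the number set as a covariate, 0 of 9 genes were called. Within numbers 3 and 4, Cd9 differed by 0.32 ± 0.13 at an unadjusted p of 0.0303 (adjusted p = 0.742 by edgeR), and within numbers 1 and 2 by −0.03 ± 0.11.

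The 6 genes besides Nceh1, Cd9, Lgals3 and Tyrobp were scarce in heart. Trem2 was at 2.77 ± 0.972 CPM in WT and 2.55 ± 0.661 in KO hearts (SD, n = 4), Gpnmb at 3.19 ± 0.739 and 3.84 ± 0.898, and Spp1 at 1.24 ± 1.12 and 0.796 ± 0.542 CPM. Itgax and Mmp12 lay between 0.736 and 3.21 CPM in every heart. Tyrobp, not among these 6, held 10.9 ± 1.2 CPM in WT hearts and 11.2 ± 3.04 CPM in KO hearts. Dcstamp had 4 reads over the WT and 2 over the KO hearts, with 4 libraries at 0, where a count of 0 allows up to 0.233 to 0.277 CPM (3 counts, counting error only), and it was not tested.

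**Figure D2:**
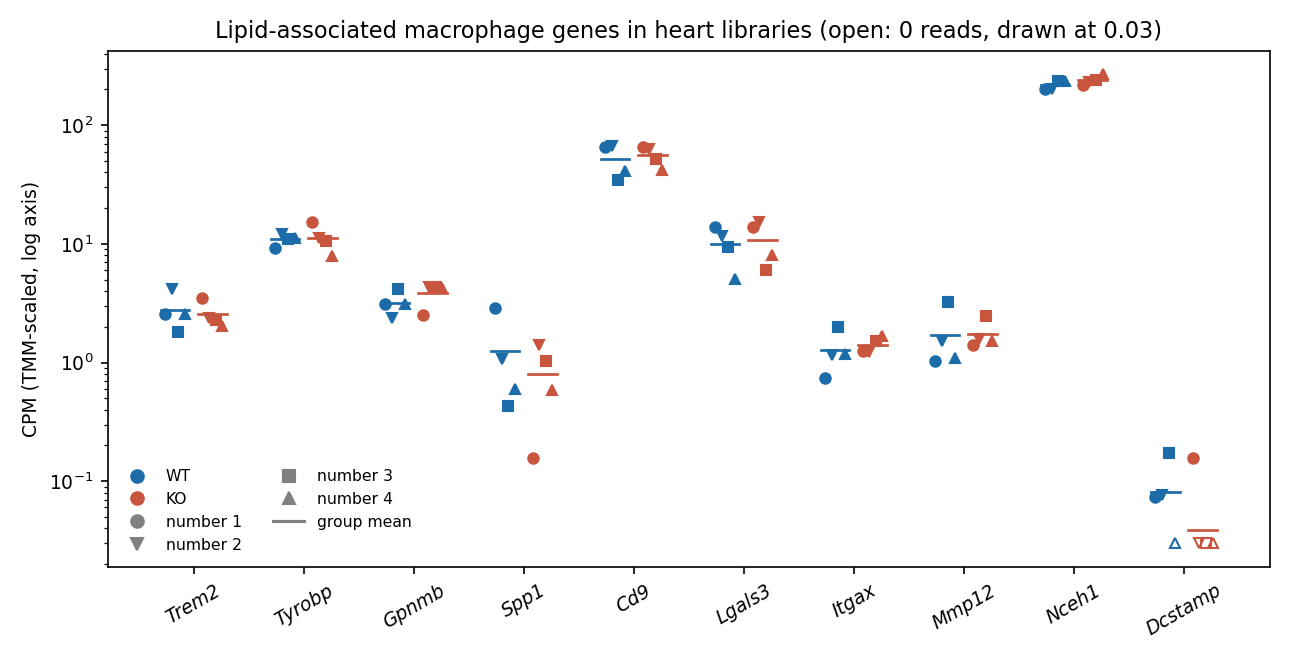
Level of each of the 10 genes in the 8 heart libraries, in CPM on a log axis, with 1 point per library and the group means; open symbols at the foot stand for libraries without a read. WT and KO points overlap for all 10 genes.

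Whether the KO effect differed between the tissues was tested in 1 fit of all 14 libraries. It did for 3 of 10 genes, whose log2 fold change was lower in gWAT than in heart: Nceh1 (difference −2.11 ± 0.31, adjusted p = 0.0164), Gpnmb (−3.57 ± 0.68, adjusted p = 0.0289) and Trem2 (−2.53 ± 0.55, adjusted p = 0.0412). Over all 16014 genes of that fit, 1.15% differed and 0.787% had a lower effect in gWAT. For the other 7 the difference was negative but not past the threshold, from −1.51 ± 0.36 for Tyrobp (adjusted p = 0.054) and −2.05 ± 0.52 for Lgals3 (0.0655) to −0.55 ± 1.91 for Dcstamp (0.933), which rests on 6 heart reads. Of the 22 alternatives, 20 called Nceh1, 9 called Gpnmb and 6 called Trem2. Leaving out WT gWAT replicate 4 or KO gWAT replicate 4 left 0 of 10 called, and leaving out WT gWAT replicate 1 left 9.

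**Figure D3:**
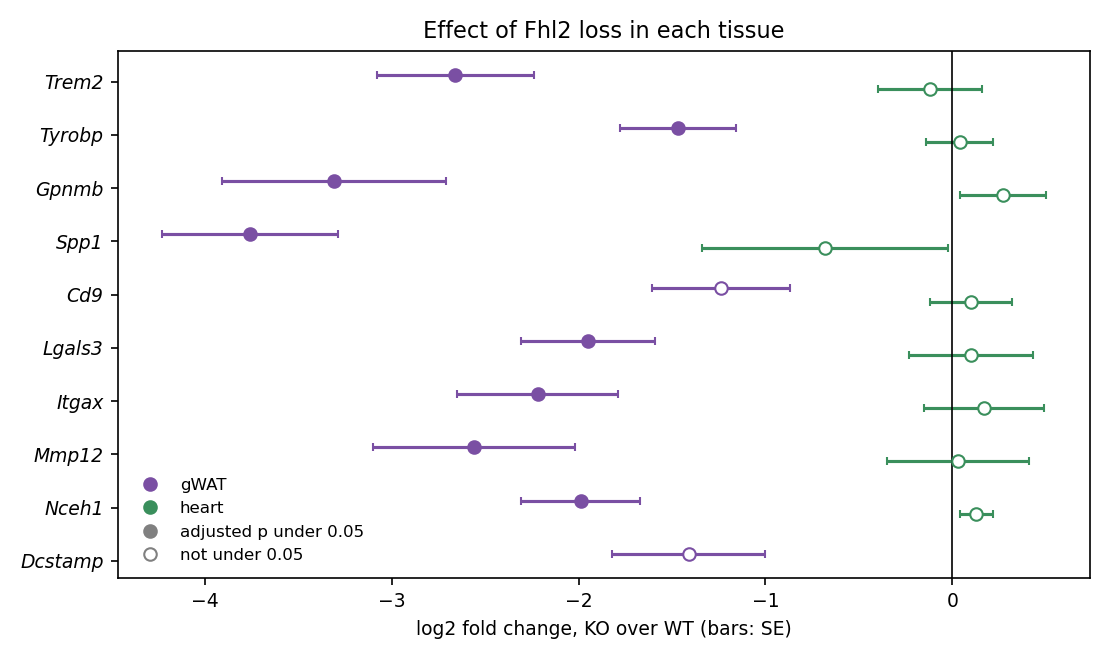
Log2 fold change of KO over WT for each of the 10 genes in gWAT and in heart, with bars of 1 SE. The gWAT values lie between −3.76 and −1.24 and the heart values between −0.68 and 0.27; Dcstamp has no heart value.

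Of 33 further genes of lipid-associated macrophages, 14 fell, 1 rose and 18 did not pass (median −0.83). Of all tested genes in gWAT, 3.48% fell and 2.01% rose, shares that also stand beside the lists below. Rgs1, a regulator of chemokine signalling, went from 62.5 ± 25.6 to 11.6 ± 1.62 CPM (−2.43), and Atp6v0d2, part of the lysosomal proton pump, from 235 ± 129 to 30.2 ± 2.27 CPM (−2.96). Plin2, the coat protein of lipid droplets, fell by 1.48 and the fatty acid carrier Fabp5 by 0.90 on the log2 scale. The gene that rose was Apoe (0.61), an apolipoprotein that TREM2 binds and that adipocytes make as well. The same list summed to 55740.0 to 56320.0 CPM in WT and 45977 to 50006 CPM in KO gWAT. It includes Fabp4, which is also in the adipocyte list below, so the sum is not a level of these macrophages alone. With single libraries left out, the number called in this list ran from 0 (WT replicate 4 or any KO replicate) over 6 (WT replicate 3) to 25 (WT replicate 1). The shares of all tested genes were then 0, 0.855% and 18.7%. DESeq2 called 22 of the list and limma-voom 11, beside 11.6% and 3.14% of all tested genes. The call of Apoe was lost with RLE scaling, library totals, the robust fit and limma-voom.

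Of 20 partners of TREM2 and DAP12, 4 fell and 1, Apoe again, rose, with 15 not past the threshold (median −0.74). DESeq2 called 13 of them (12 lower, 1 higher) and limma-voom 0, beside 11.6% and 3.14% of all tested genes. The summed level of the 20 partners, Apoe included, went the other way, from 2596 to 3159 CPM in WT to 3255 to 3717 CPM in KO gWAT. The falls included the adaptor Blnk (63.3 ± 34.7 to 18.1 ± 0.440 CPM, −1.81), the exchange factor Vav3 (−1.0) and Ms4a7, a four-span membrane protein of macrophages (−2.05). Among related receptors that use DAP12 or resemble TREM2, 6 of 10 could be tested and Cd300lb fell (71.0 ± 42.7 to 19.6 ± 2.01 CPM, −1.85, adjusted p = 0.0466 by edgeR). Library totals without scaling and limma-voom called 0 of the 6, beside 5.09% and 3.14% of all tested genes. DESeq2 called 3 of the 6, all lower.

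Among 21 integrins, galectins and tetraspanins that work with Spp1, Lgals3, Itgax or Cd9, Itgad (−2.45) and Cd53 (−0.94) fell and 19 did not pass (median −0.09). Of all tested genes, 5.49% were called and 3.48% fell. DESeq2 called 7 of the 21, all lower, and limma-voom 1, beside 11.6% and 3.14% of all tested genes. Itgb2, the beta chain that pairs with CD11c, stood at 283 ± 155 CPM in WT and 93.9 ± 11 in KO (−1.59, adjusted p = 0.0511), and Cd44, an osteopontin receptor, at 204 ± 82.0 and 82.9 ± 28.0 CPM (−1.30, adjusted p = 0.0612). Of 12 genes of cell fusion and osteoclasts, 4 fell and 1 rose (median −0.61). The falls included Ctsk, the collagen-cutting cathepsin K (178 ± 102 to 40.1 ± 4.35 CPM, −2.15), and Tnfrsf11a, the receptor RANK (−1.74), and Mmp9, a gelatinase, rose (1.18). DESeq2 called 6 of these 12 (5 lower, 1 higher) and limma-voom 3 (2 lower, 1 higher).

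Of 15 pan-macrophage markers, 5 fell and 10 did not pass, with a median (−0.96) nearer to 0 than that of the 10 genes: Cd68 went from 403 ± 217 to 101 ± 6.17 CPM (−2.0), Fcgr1 from 26.4 ± 9.64 to 6.79 ± 0.912 (−1.96) and Adgre1, the gene of F4/80, from 285 ± 138 to 99.6 ± 11.7 CPM (−1.52). Cd68 is also in the wider lipid-associated list. Without WT replicate 1 the test called 14 of the 15 markers, and without WT replicate 3 it called 1. Of all tested genes it then called 18.7% and 0.855%. Markers of resident tissue macrophages had a median of 0.40, with 0 lower and 2 of 10 higher, Lyve1 (45.5 ± 10.7 to 77.4 ± 9.40 CPM, 0.77) and Gas6 (0.72). The other 8 did not pass. Of the 10 markers 7 had a positive log2 fold change and 3 a negative one, Folr2 (−0.26), Mrc1 (−0.22) and Stab1 (−0.62). Set against the mean log2 CPM of the pan-macrophage markers, the mean of the 10 genes lay 0.04, 0.80 and 0.75 above it in WT replicates 1, 3 and 4, and at −0.73, −0.45 and −0.47 in KO replicates 1, 3 and 4. The KO libraries lay below the WT libraries on that scale as well, for 8 of 10 genes taken singly, Cd9 and Dcstamp being the others. Of all tested genes, 1.57% did so on that scale. The pan-macrophage mean itself went from 6.68 in WT to 5.71 in KO. Unchanged genes therefore rise in KO on that scale, and the share is low by construction.

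**Figure D4:**
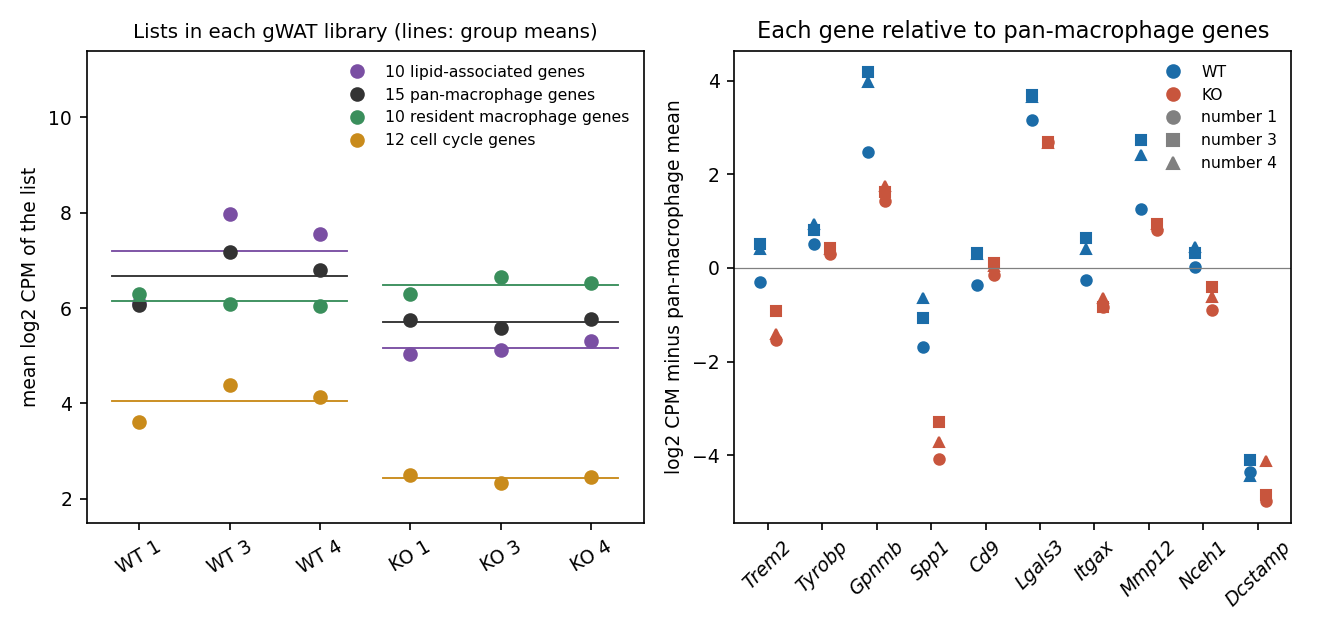
Left, mean log2 CPM of the 10 genes and of the pan-macrophage, resident macrophage and cell cycle lists in each gWAT library, with lines at group means. Right, each of the 10 genes relative to the pan-macrophage mean. The 10 genes sit at 6.10 to 7.97 in WT and 5.03 to 5.30 in KO libraries, and the resident list at 6.05 to 6.29 in WT and 6.29 to 6.66 in KO libraries.

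Some genes of other cell types and of division also moved with genotype in gWAT, and their part in the falls was not tested. All 12 cell cycle genes fell (median −1.76), among them Top2a (−1.62) and Ccna2 (−1.78). Adipocyte markers rose in 3 of 15, Cfd, Pck1 and Retn, and 12 did not pass (median 0.49). Of the 15, 13 had a positive log2 fold change and 2 a negative one, Lep (−0.45) and Agpat2 (−0.53). The markers summed to 26693 to 39601 CPM in WT and 39475 to 44168 CPM in KO, with WT replicate 1 (39601 CPM) within the KO range. Mesothelial markers rose in 3 of 10, Msln, Krt19 and Krt8, and summed to 152 to 327 CPM in WT and 429 to 718 CPM in KO.

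Neutrophil genes summed to 16.7 to 27.3 CPM in WT and 7.64 to 9.86 CPM in KO, with Ly6g at 0. Of the 8 neutrophil genes 2 were tested, with 0 called by edgeR, both at unadjusted p under 0.05, both called lower by DESeq2 and 0 called by limma-voom. Genes of natural killer cells, which also carry DAP12, summed to 9.25 to 12.3 CPM in WT and 7.99 to 20.9 CPM in KO. Those of dendritic cells, which carry CD11c, summed to 101 to 152 and 93.3 to 109.7 CPM. Of these 10 dendritic cell genes, 4 had a negative and 6 a positive log2 fold change, with 5 at unadjusted p under 0.05 in edgeR. It called 1, the scarce H2-DMb2, higher in KO (2.00 ± 0.0657 to 4.11 ± 0.612 CPM, 1.04). DESeq2 called 3 (1 lower, 2 higher) and limma-voom 0. One monocyte gene of 8, Chil3, fell (3.62 ± 0.791 to 1.03 ± 0.542 CPM, −1.80). Fibroblast markers summed to 10836 to 13065 CPM in WT and 14221 to 14979.5 CPM in KO, with 0 of 10 called by edgeR, 7 at unadjusted p under 0.05, 6 called by DESeq2 (3 lower, 3 higher) and 0 by limma-voom. Of all 15200 genes tested in gWAT, 3510 were at unadjusted p under 0.05 in edgeR, and DESeq2 called 11.6%. Mitochondrial reads made up 3.43%, 2.18% and 2.53% of WT replicates 1, 3 and 4 and 3.28% to 4.19% of the KO gWAT libraries. In heart, 0 of the 175 list genes tested were called by edgeR, DESeq2 or limma-voom. In edgeR 7 of them were at unadjusted p under 0.05, beside 453 of all 14159 tested genes.

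**Figure D5:**
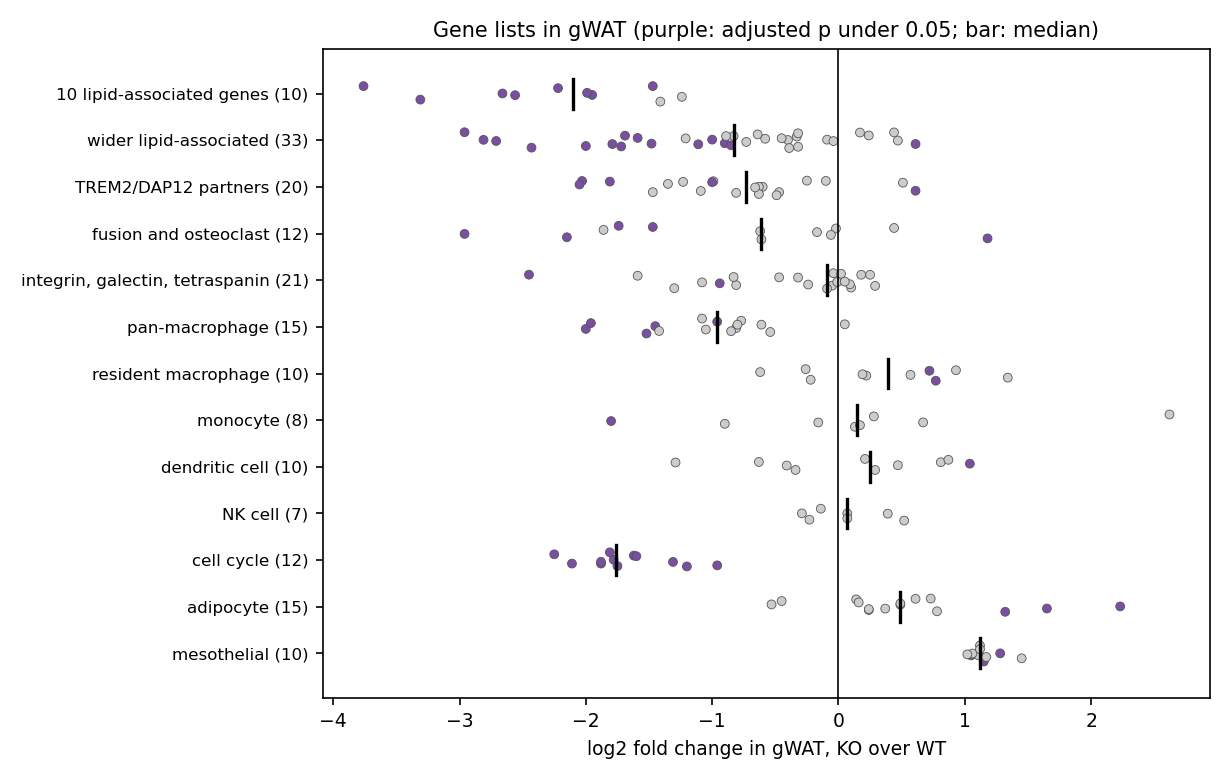
Log2 fold change of KO over WT in gWAT for each tested gene of the lists drawn, 1 point per gene. Points are purple where the gene passed the threshold of 0.05 and grey where not, with a bar at the median of each list. Not drawn are the neutrophil (median −1.22), Trem family (−1.09), T and B cell, endothelial, fibroblast, cardiomyocyte and epididymis lists. Of the lists drawn, the 10 genes have the lowest median (−2.10), followed by cell cycle (−1.76) and, among macrophage lists, pan-macrophage (−0.96), while the resident list lies at 0.40.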

How the data were processed

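mRNA of 14 flash-frozen tissue samples was extracted with Trizol and made into libraries with the Kapa mRNA HyperPrep kit, per the labels' protocols. The authors deposited raw read counts per Ensembl gene, not normalized. The submitters' processing notes list HISAT2 2.1.0 and HTSeq 0.11.0 beside Trimmomatic 0.32, FastQC, Picard, limma and the mm10 build, without roles. The annotation release and strand setting are not stated in these sources. Symbols were paired with 33406 of 33459 IDs, and 0 columns of the table lacked a sample. Coordinates and exon lengths come from GENCODE M21 (GRCm38).

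In R 4.3.3 with edgeR 4.0.16, low-count genes were removed per tissue (filterByExpr by group), TMM factors set the library sizes, and the quasi-likelihood F test was used (two-sided, Benjamini-Hochberg over 15200 genes in gWAT and 14159 in heart, threshold 0.05). The difference between tissues was an interaction contrast over all 14 libraries. The SE is the size of the log2 fold change divided by the square root of F. DESeq2 1.42.0, limma-voom (3.58.1), other scalings and filters, a robust fit, a replicate block, leaving out each library and, chosen after seeing the data, splits of the heart replicate numbers were the alternatives. Scripts were tested on simulated data. Figures were drawn with Python 3.11.15, pandas 2.3.3 and matplotlib 3.10.9.

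The members, the 19 gene lists and the tests were chosen with earlier results of these data known. Named besides the members are Fhl2, up to 4 tested genes of each list with the smallest p in gWAT, genes in a short count, and the 6 genes nearest in pattern. Some genes that this rule takes are not reported here. Apoe was named after its value was seen. Of 18 pairs of libraries within a group, 0 looked like 1 library deposited as 2 (chi-square per degree of freedom of at least 3.53). Deviations from the group means of same-numbered WT and KO hearts correlated at 0.25 to 0.36, above the 0.1 set for taking numbers as pairs. Hearts of different numbers within the sets 1 and 2 or 3 and 4 correlated at 0.17 to 0.45, so these values do not tell pairs by number from the sets. The block changed the call of 0 of the members there.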

Additional observations from a re-analysis of the deposited data

Results flagged for a closer look

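Of 20 gene and group combinations in heart looked at for a library far from the others, 3 had one, where chance gives about 1 in 20. Gpnmb was lowest in KO replicate 1 at 2.50 CPM, with the other KO hearts at 4.21 to 4.36 CPM. Mmp12 was highest in KO replicate 3 at 2.46 CPM, and Dcstamp in KO replicate 1 at 0.156 CPM, where the other KO hearts had no read. All of these rest on few reads, and none of the genes was called in heart.

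The KO effect differed between gWAT and heart, by the interaction test of edgeR, for Trem2 (−2.53), Gpnmb (−3.57) and Nceh1 (−2.11 on the log2 scale). The Nceh1 difference is the one with the most reads in heart, 10906 in WT and 11647 in KO, while Trem2 had 140 and 125 and Gpnmb 158 and 186.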

How the results depend on the processing

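In gWAT 834 genes were called, 1769 by DESeq2, 477 by limma-voom, 1600 without a filter and 1725 in 1 fit of all libraries. Leaving out single libraries gave 0 to 2908 genes and 0 to 10 of the 10 macrophage genes, with 2908 and 10 without WT replicate 1. Limma-voom called 5 of the 10. With the replicate number as a block in gWAT, 0 genes and 0 of the 10 were called by edgeR, with 2922 genes and all 10 at unadjusted p under 0.05. Same-numbered gWAT samples correlated at −0.12, −0.21 and 0.01 in their deviations, so the numbers are not taken as pairs there. In gWAT the number called by DESeq2 and limma-voom was 12 and 3 of the pan-macrophage list (5 by edgeR), 3 and 0 of the resident list (2), 10 and 2 of the mesothelial list (3), 7 and 3 of the adipocyte list (3) and 12 and 11 of the cell cycle list (12). All 150 values of the 10 genes under the 15 alternatives were negative.

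In heart 1 gene was called, 2 by DESeq2, 3 without a filter, 2 with the number covariate and 17 in numbers 3 and 4 alone. For the difference between tissues 184 genes were called, 669 by DESeq2, 69 by limma-voom, 533 without a filter, 30 with the replicate block and 3 to 1315 with single libraries left out. Of the 10 genes 3 were called, 8 by DESeq2, 1 by limma-voom, 9 without a filter, 2 with the robust fit or the block, and 0 to 9 with single libraries left out. Same-numbered samples of the tissues correlated at −0.03 to 0.18. The cause of these shifts was not tested. Fewer samples enter when libraries are left out, and the number called in gWAT then moved in both directions. The WT ratios moved by less than the spread under 2 other scalings. Depth limits Dcstamp in both tissues and the scarce genes in heart.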

Other observations

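Among the genes whose levels over the 6 gWAT libraries followed the 10 genes most closely, by root mean square distance of centred log2 CPM, were Cd300c2 (0.10), Ctsk (0.10), Cadm1 (0.11), Cd68 (0.13) and Hk3 (0.14). The median distance of all tested genes was 1.19, and the 10 genes themselves lay at 0.10 (Itgax) to 0.77 (Spp1). Cd300c2, a myeloid receptor of the CD300 family, was at 18, 69.8 and 53.4 CPM in WT and 10.3 to 10.4 CPM in KO libraries. Cadm1, an adhesion molecule, was at 18.5, 71.5 and 58.0 CPM in WT and 8.35 to 11 CPM in KO. Hk3, a hexokinase of myeloid cells, was at 22.4, 90.6 and 65.8 CPM in WT and 11.8 to 13.8 CPM in KO. These 5 genes repeat the low level of WT replicate 1, and the distance uses the same libraries as the comparison.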
